A study of Mus musculus with 8 samples.

Results

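The 10 genes described here, Adipoq, Fabp4, Cfd, Car3, Plin1, Plin4, Retn, Lep, Cidea and Adrb3, are genes of fat cells whose transcripts were counted in scrapings of the jejunal mucosa. They were chosen by name as adipocyte genes and matched by symbol to the Ensembl identifiers of the count tables, and all 10 were found among 56980 identifiers. RNA was sequenced from 4 male FFA2 fl/fl mice, which carried the floxed gene of the free fatty acid receptor FFA2 and no Cre, and from 4 male Adipoq-F2-KO mice, which carried the same floxed gene and the Adiponectin-Cre transgene. All mice were co-housed from birth, were 12 weeks old when the diet was begun, and received a Western diet supplemented with 10% fructooligosaccharides for 2 weeks under thermoneutral housing. The controls lacked both the transgene and the deletion, so that these cannot be told apart. The study detected the transgene by qPCR across the border of adiponectin promoter and Cre sequence, so its transcript may carry sequence of the adiponectin gene, and how much of that lies in the exons counted for Adipoq was not given in the sources used here. Reads of Adipoq from the gene itself and from the transgene could therefore not be separated.

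Adipocytes store triacylglycerol in a single large lipid droplet, release it as free fatty acids when stimulated, and secrete hormones termed adipokines. In the small intestine, fat cells are known from the mesentery that holds the gut and are not a regular constituent of the epithelium, while enterocytes carry their own relatives of several of these proteins for the uptake of dietary fat. Adiponectin, the product of Adipoq, is made almost exclusively by adipocytes, and its gene therefore supplies the promoter with which FFA2 was deleted in fat.

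The tissue was checked by its markers. The summed level of 10 villus enterocyte genes, among them Apob, Sis and Anpep, was 67220 to 73980 CPM in the 8 libraries (the count divided by the library total and scaled to 1000000 counts), whereas the summed level of the 10 adipocyte genes was 2.72 to 97.2 CPM. These enterocyte genes were read as markers of small intestinal epithelium, and their sum was not used to place a sample along the gut. In FFA2 fl/fl 3 and Adipoq-F2-KO 3 and 4, the ileal gene Fabp6 was at 41.6, 11.5 and 76.6 CPM. It was at most at 0.329 CPM in the other 5 libraries. The summed enterocyte genes were at 72060 to 72520 CPM in these 3 and at 67220 to 73980 CPM in the other 5. All 8 libraries are labelled jejunum, and the position of the samples along the gut was not tested. Library totals fell into 2 classes. In 5 libraries (FFA2 fl/fl 1, 2 and 4, and Adipoq-F2-KO 1 and 2) they were 15204995 to 21712776 counts, and in 3 libraries (FFA2 fl/fl 3, and Adipoq-F2-KO 3 and 4) they were 6007654 to 6541595 counts. These are called deep (over 10000000 counts) and shallow below. The totals did not separate the genotypes, at 15568561 ± 6868121 counts in FFA2 fl/fl and 11501165 ± 6103007 in Adipoq-F2-KO (SD, n = 4 per genotype; exact permutation test, two-sided, p = 0.343, where the smallest possible p is 0.0286). A raw count of 3, taken as the floor of detection, corresponded to 0.138 to 0.197 CPM in the deep and 0.459 to 0.499 CPM in the shallow libraries. The deleted gene, Ffar2, had 12, 18, 2 and 11 counts in FFA2 fl/fl and 13, 12, 6 and 3 in Adipoq-F2-KO, which was above this floor in the deep libraries and at or near it in the shallow. As the deletion was made in fat, these mucosal counts do not test it.

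The sequences before the starts of Adipoq and Lep are shown because the first of these genes is the source of the Cre driver and because both hold a match to one of the motifs searched. RefSeq promoter entries were matched for 6 of the 10 genes (Adipoq, Cfd, Plin1, Plin4, Retn and Lep), and in each the 250 bases before the start were searched on both strands for 4 motifs. In the lines below, capitals mark CCAAT on either strand in Adipoq and the C/EBP palindrome TTGCGCAA in Lep. The Adipoq sequence lies at chr16:23146286-23146535 on the plus strand of GRCm38.p6 and the Lep sequence at chr6:29059971-29060220 on the plus strand of the same build.
Adipoq: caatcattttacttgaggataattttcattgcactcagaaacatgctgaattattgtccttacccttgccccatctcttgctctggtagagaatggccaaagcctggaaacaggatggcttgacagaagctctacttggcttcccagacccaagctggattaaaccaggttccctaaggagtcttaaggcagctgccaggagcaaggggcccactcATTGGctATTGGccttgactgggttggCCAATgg
Lep: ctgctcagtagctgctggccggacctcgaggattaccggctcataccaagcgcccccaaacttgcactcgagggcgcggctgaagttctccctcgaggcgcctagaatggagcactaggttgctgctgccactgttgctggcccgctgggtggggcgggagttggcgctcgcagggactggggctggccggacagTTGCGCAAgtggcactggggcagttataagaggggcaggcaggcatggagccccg
CCAAT was found 3 times before Adipoq, within the last 34 bases ahead of the start, and 1 time before Plin4. It occurred in 33.8% of 32851 mouse promoters of the same length. The C/EBP palindrome was found before Lep alone among the 6, at 55 to 48 bases ahead of the start, and occurred in 0.164% of all promoters. The letters AGGTCA of nuclear receptor sites (14% of promoters) and TATAAA (12.4%) were in none of the 6 windows. These matches describe the letters in the windows only.

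The secreted products are described first. Adipoq (ENSMUSG00000022878; chromosome 16, 23146536 to 23158028, plus strand of GRCm38) encodes adiponectin, which acts on insulin sensitivity. Its raw counts were 2, 3, 59 and 0 in FFA2 fl/fl libraries 1 to 4 and 0, 3, 27 and 12 in Adipoq-F2-KO libraries 1 to 4. Relative to the library total, these were 0.105, 0.138, 9.82 and 0 CPM in FFA2 fl/fl and 0, 0.165, 4.42 and 1.83 CPM in Adipoq-F2-KO. All 5 deep libraries were thus at or under the floor of 3 counts, and all 3 shallow libraries were above it, whichever the genotype. Cfd (ENSMUSG00000061780; chromosome 10, 79890853 to 79892655, plus strand) encodes adipsin, the complement factor D of fat. It was counted 3, 4, 76 and 7 times in FFA2 fl/fl and 4, 10, 36 and 33 times in Adipoq-F2-KO, or 0.157, 0.184, 12.6 and 0.452 CPM and 0.263, 0.551, 5.90 and 5.04 CPM. The order was that of Adipoq, with FFA2 fl/fl 3 highest and Adipoq-F2-KO 3 and 4 next.

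Lep (ENSMUSG00000059201; chromosome 6, 29060220 to 29073877, plus strand) encodes leptin, the satiety hormone of fat, and was close to the limit of detection. Its counts were 1, 0, 7 and 0 in FFA2 fl/fl and 0, 1, 3 and 1 in Adipoq-F2-KO, so that FFA2 fl/fl 3 alone exceeded the floor. Retn (ENSMUSG00000012705; chromosome 8, 3655770 to 3660110, plus strand) encodes resistin, another adipokine of the mouse. It had 0, 0, 2 and 2 counts in FFA2 fl/fl and 2, 1, 2 and 3 in Adipoq-F2-KO, at or under the floor in every library. Leptin and resistin transcripts were therefore barely detectable at this depth in either genotype.

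Among the genes of lipid handling, Fabp4 (ENSMUSG00000062515; chromosome 3, 10204088 to 10208576, minus strand) encodes the fatty acid carrier of the adipocyte cytoplasm, which endothelium and macrophages make as well. Its counts were 11, 24, 116 and 1 in FFA2 fl/fl and 6, 12, 54 and 50 in Adipoq-F2-KO, corresponding to 0.576, 1.105, 19.3 and 0.0646 CPM and to 0.395, 0.661, 8.85 and 7.64 CPM. The level in FFA2 fl/fl ranged from under the floor in library 4 to the highest of all 8 libraries in library 3. Plin1 (ENSMUSG00000030546; chromosome 7, 79720218 to 79732903, minus strand) encodes perilipin 1, which coats the adipocyte droplet and restrains lipolysis. It was counted 0, 5, 17 and 3 times in FFA2 fl/fl and 2, 2, 11 and 10 times in Adipoq-F2-KO, again with the 3 shallow libraries above all others. Cidea (ENSMUSG00000024526; chromosome 18, 67343604 to 67367785, plus strand), whose product promotes droplet fusion, had 6 counts in all and at most 2 in any library.

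Plin4 (ENSMUSG00000002831; chromosome 17, 56100591 to 56109803, minus strand), another droplet coat protein of white fat that is also made in muscle, differed from these in that it was well detected everywhere. Its counts were 49, 79, 93 and 19 in FFA2 fl/fl and 25, 60, 34 and 49 in Adipoq-F2-KO, or 2.57, 3.64, 15.5 and 1.23 CPM and 1.64, 3.31, 5.57 and 7.49 CPM. The 3 shallow libraries were the highest here too, by a smaller margin. Exons of Plin4 share 17 bases with those of Hdgfl2 on the opposite strand, and the strand setting of the counting was not given in the sources used here.

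Car3 (ENSMUSG00000027559; chromosome 3, 14863512 to 14872523, plus strand) encodes carbonic anhydrase 3, abundant in white fat and in slow skeletal muscle, and had the highest pooled count of the 10 (436, against 408 for Plin4), although Plin4 had more counts in each deep library. The counts of Car3 were 9, 26, 191 and 10 in FFA2 fl/fl and 17, 31, 77 and 75 in Adipoq-F2-KO, giving 0.472, 1.197, 31.8 and 0.646 CPM and 1.12, 1.71, 12.6 and 11.5 CPM. Of 8 skeletal muscle genes, Mb, Myh1 and Pvalb were at 0 in every library, and the summed level of the list was 0.711 to 6.66 CPM, highest in FFA2 fl/fl 3. Adrb3 (ENSMUSG00000031489; chromosome 8, 27225776 to 27250616, minus strand) encodes the β3-adrenergic receptor through which catecholamines start lipolysis. It was counted 3, 5, 21 and 0 times in FFA2 fl/fl and 1, 6, 1 and 7 times in Adipoq-F2-KO. Adrb3 was the one gene with 10 or more counts in all that did not follow the shallow libraries as a set, since Adipoq-F2-KO 3 had a single count. Its exons overlap 839 bases of the antisense gene Gm45470, which had 13 counts.

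**Figure D1:**
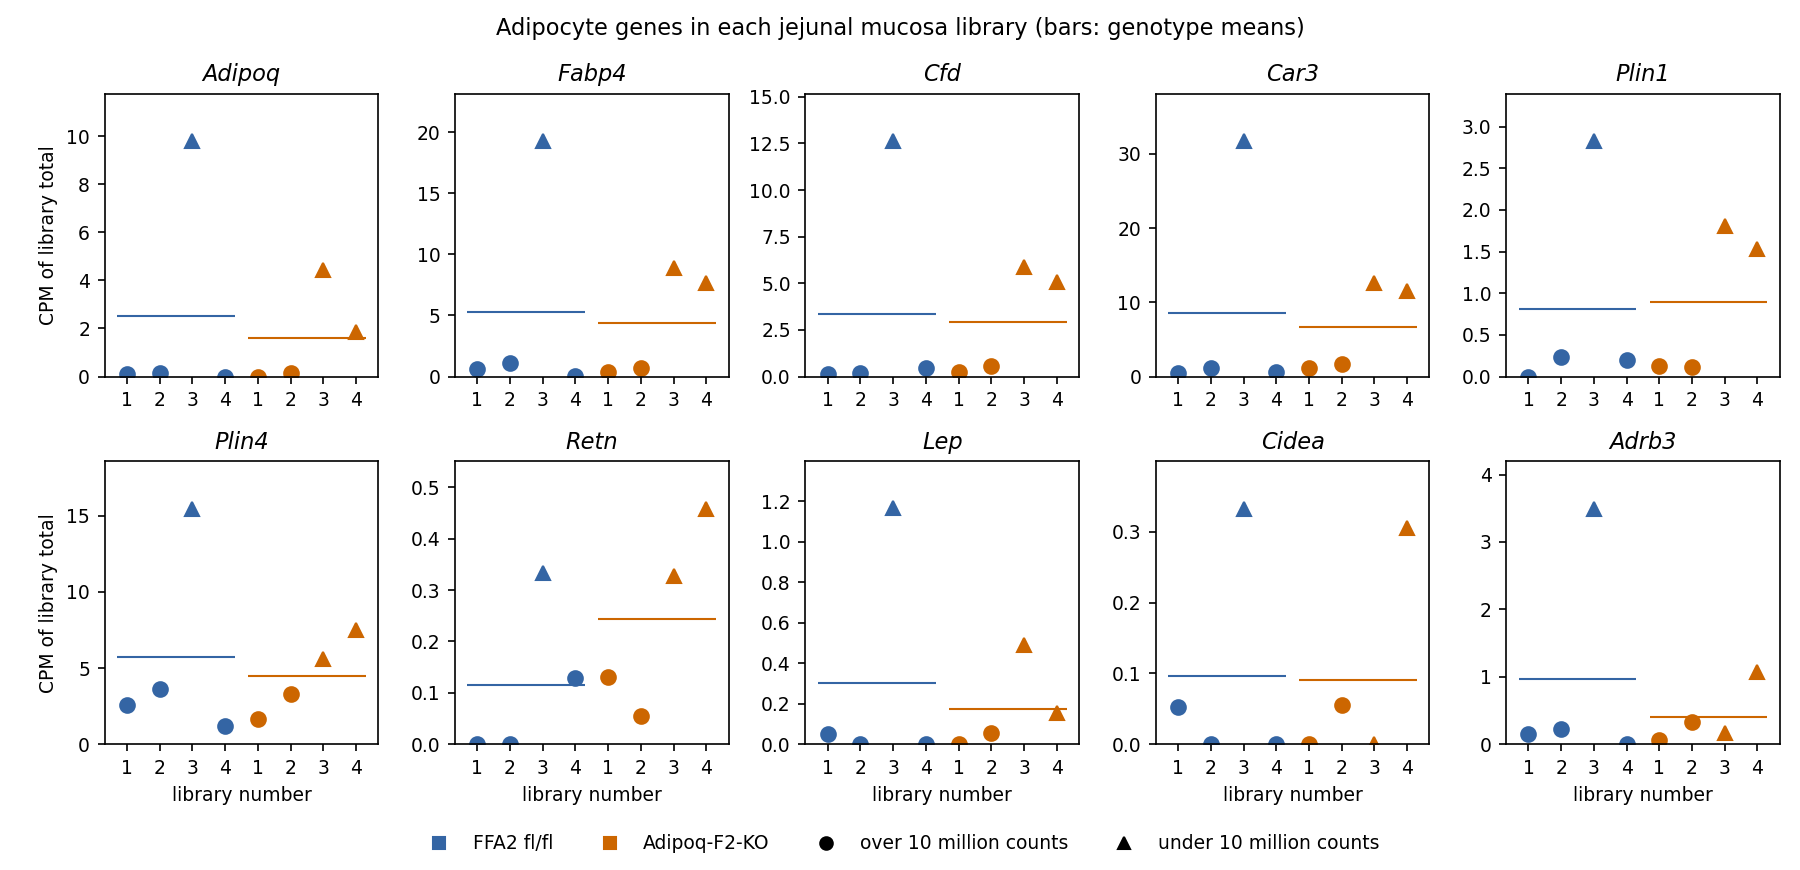
Level of each of the 10 adipocyte genes (y axis, CPM of the library total, linear and starting at 0, scaled per gene) in FFA2 fl/fl libraries 1 to 4 (blue) and Adipoq-F2-KO libraries 1 to 4 (orange). Circles are libraries of over 10000000 counts, triangles those under, and horizontal bars are genotype means (n = 4 each); FFA2 fl/fl 3 is the highest library for 9 of the 10 genes, and Adipoq-F2-KO 3 and 4 follow for most.

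Per length of their exons, the 4 highest of these genes stood in the same order in each shallow library. Fabp4 was highest, with 21.5, 9.88 and 8.53 CPM per kilobase in FFA2 fl/fl 3, Adipoq-F2-KO 3 and Adipoq-F2-KO 4. Car3 followed with 18.9, 7.51 and 6.83, then Cfd with 13.7, 6.40 and 5.47, and then Adipoq with 7.60, 3.42 and 1.42 CPM per kilobase. This order held within each of the 3 libraries, although the ranges of neighbouring genes over the 3 libraries overlapped. The means of the other 6 genes in the shallow libraries were 0.185 (Lep) to 1.65 (Plin4) CPM per kilobase.

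The relation of the 10 genes to the library totals was examined next. Summed over the 10 genes, raw counts were 79, 146, 584 and 42 in FFA2 fl/fl and 57, 127, 245 and 242 in Adipoq-F2-KO, so that the shallow libraries held more counts of these genes although they held fewer counts in all. As a share of the total, FFA2 fl/fl 3 stood at 97.2 CPM (exact 95% interval, counting error only, 89.5 to 105.4), Adipoq-F2-KO 3 at 40.1 CPM (35.3 to 45.5) and Adipoq-F2-KO 4 at 37.0 CPM (32.5 to 42.0). The deep libraries were at 2.72 to 6.99 CPM. The mean was 58.1 ± 33.9 CPM in the 3 shallow libraries and 4.87 ± 1.90 CPM (SD) in the 5 deep ones, with no overlap. Plin4 carried much of the deep sum, and without it the means were 48.6 ± 28.8 and 2.39 ± 0.967 CPM. No correlation over the 8 libraries is given, since the totals form 2 separate clusters. Within the deep class the sum did not go down with the total, as the library with the largest total, FFA2 fl/fl 2, had 6.72 CPM and that with the smallest, Adipoq-F2-KO 1, had 3.75 CPM. These are bulk samples, in which more fat cells and more RNA per fat cell cannot be told apart, and the part that depth had in the difference was not tested.

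**Figure D2:**
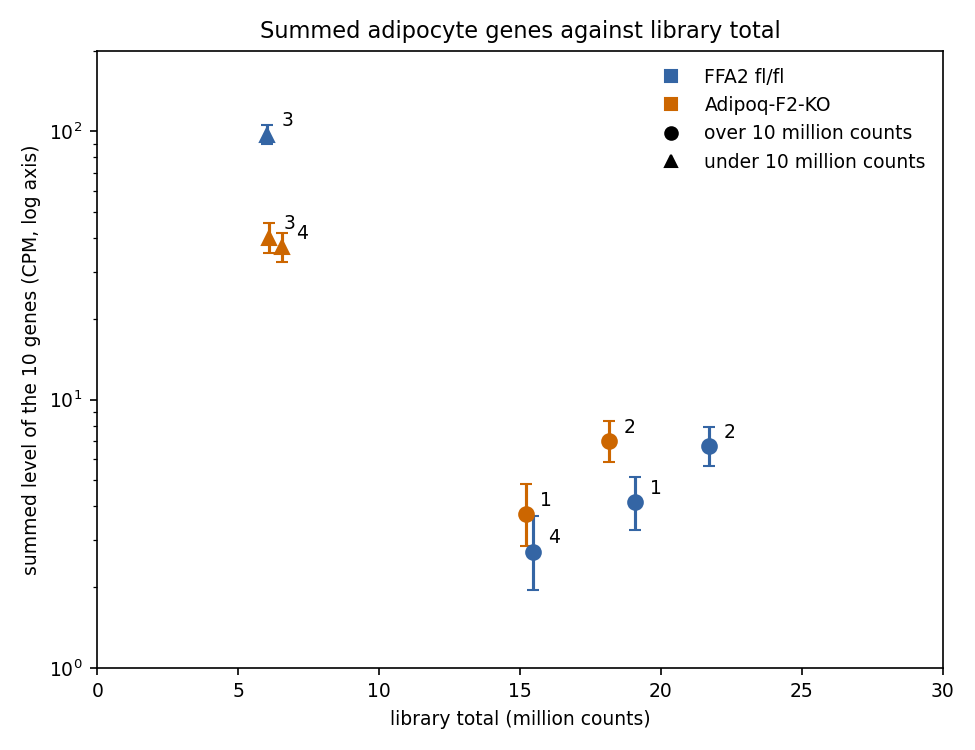
Summed level of the 10 adipocyte genes (y axis, CPM, log axis) against the library total (x axis, in units of 1000000 counts), with exact 95% intervals for counting error and library numbers beside the points. The 3 libraries of under 10000000 counts lie between 37.0 and 97.2 CPM and the 5 others between 2.72 and 6.99 CPM, and both genotypes occur in both clusters.

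Gene by gene, 8 of the 10 adipocyte genes were higher in every shallow library than in any deep library, the others being Adrb3 and Cidea. Cidea had under 10 counts in all, while Adipoq, Lep and Retn reached 10 counts only with those of the shallow libraries, where they had 98, 11 and 7 counts against 8, 2 and 5 in the deep. As the filter favoured this order for these 3 genes, the count of 8 is a description. Of all 23069 genes with 10 or more counts, 1040 (4.51%) were likewise higher in every shallow library. For Retn and Lep this order rests on counts at or near the floor, as Retn had at most 3 counts in any library and Lep had 1 in Adipoq-F2-KO 4. Pooled over libraries, the shallow level exceeded the deep level most for Adipoq, at 58.9-fold (exact 95% interval 28.7 to 140.2, from 98 and 8 counts). Cfd was 24.9-fold (16.5 to 38.8), Fabp4 19.6-fold (14.5 to 26.9), Car3 17.7-fold (14.1 to 22.5) and Plin1 15.2-fold (7.78 to 32.0) higher. Adrb3 was 9.29-fold (4.82 to 18.6) and Plin4 3.65-fold (2.98 to 4.45) higher. The intervals of Fabp4, Car3, Adrb3 and Plin4 did not reach that of Adipoq. FFA2 fl/fl 3 gave a large part of these counts, and without it the ratios were 34.6-fold for Adipoq (15.9 to 85.6), 17.5-fold for Cfd, 13.7-fold for Fabp4, 11.6-fold for Car3, 12.4-fold for Plin1, 2.54-fold for Plin4 and 3.78-fold for Adrb3 (1.39 to 9.50), and the intervals of Adipoq and Fabp4 (9.74 to 19.3) overlapped. The ratio of Lep was then 14.2-fold (2.03 to 156.7, from 4 and 2 counts). For the genes of few counts the pooled ratio was 26.4-fold for Lep (5.77 to 245.4), 9.61-fold for Cidea (1.38 to 106.2) and 6.73-fold for Retn (1.84 to 26.9). The intervals cover counting error only and not the spread between mice.

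The proportions among the genes were compared between the shallow libraries, with Fabp4 as the reference. The count of Cfd was 0.655, 0.667 and 0.660 of that of Fabp4 in FFA2 fl/fl 3, Adipoq-F2-KO 3 and Adipoq-F2-KO 4, nearly the same proportion in each, although the summed level in FFA2 fl/fl 3 was above those of the other two by more than the counting error. Car3 stood at 1.65, 1.43 and 1.5 of Fabp4, and Plin1 at 0.147, 0.204 and 0.200. Adipoq stood at 0.509, 0.500 and 0.240 of Fabp4, lowest in Adipoq-F2-KO 4. As a share of the counts of both genes, Adipoq was 33.7% (exact 95% interval 26.8 to 41.2) in FFA2 fl/fl 3, 33.3% (23.2 to 44.7) in Adipoq-F2-KO 3 and 19.4% (10.4 to 31.4) in Adipoq-F2-KO 4, and these intervals overlapped. In the pooled deep libraries it was 12.9% (5.74 to 23.9), from 8 counts of Adipoq and 54 of Fabp4, below the interval of FFA2 fl/fl 3. Over the pooled shallow libraries the share of Adipoq was 30.8% (25.8 to 36.2), which did not overlap that of the pooled deep ones. Plin4 departed in the other direction, with 4.30 counts per count of Fabp4 in the pooled deep libraries against 0.802, 0.630 and 0.980 in the shallow libraries. Cfd, Car3 and Plin1 in the pooled deep libraries stood at 0.519, 1.72 and 0.222 of Fabp4, and as shares of the pair their intervals overlapped those of the pooled shallow libraries. Single deep libraries differed. The share of Cfd was 14.3% (4.03 to 32.7) in FFA2 fl/fl 2 and 87.5% (47.35 to 99.7) in FFA2 fl/fl 4, from 4 and 7 counts of Cfd. These lay below and above the pooled shallow interval (34.7 to 44.95).

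The comparison of the genotypes asked whether the adipocyte genes differed between Adipoq-F2-KO and FFA2 fl/fl mucosa. No difference was detectable. Of 15986 genes tested with DESeq2, 6 (0.0375%) had an adjusted p below 0.05 in either direction, and none of the adipocyte genes was among them. Fabp4, Cfd, Car3 and Plin4 were tested, while the other 6 had 10 counts in fewer than 4 libraries and were read from a fit without a filter. None of the 10 had an unadjusted p below 0.05 in DESeq2, and edgeR's quasi-likelihood test called none either. The libraries of the genotypes overlapped for all 10 genes, and of all tested genes 331 (2.07%) did not overlap. The level of Car3 was 8.53 ± 15.5 CPM in FFA2 fl/fl and 6.73 ± 6.16 CPM in Adipoq-F2-KO (SD, n = 4 per genotype), with a log2 fold change of −0.38 (95% interval −3.25 to 2.50; DESeq2, adjusted p = 0.9998). Fabp4 stood at 5.26 ± 9.37 and 4.39 ± 4.49 CPM, with a log2 fold change of −0.29 (−3.42 to 2.84). For Cfd the values were 3.36 ± 6.19 and 2.94 ± 2.95 CPM, with a log2 fold change of −0.22 (−3.31 to 2.86). Plin4 had 5.73 ± 6.58 and 4.503 ± 2.56 CPM, with a log2 fold change of −0.36 (−2.08 to 1.36). The SD exceeded the mean in FFA2 fl/fl for all 4, as 1 library of the 4 stood far above the others. The intervals are wide enough to hold changes of several fold in either direction, and the test does not show that the levels were equal.

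Of the 6 genes under the filter, Adipoq had 2.52 ± 4.87 CPM in FFA2 fl/fl and 1.61 ± 2.05 CPM in Adipoq-F2-KO (SD, n = 4 per genotype), and its log2 fold change was −0.68 (−5.11 to 3.75; DESeq2 without a filter, adjusted p = 0.99998). The fitted log2 fold changes of Plin1, Lep, Retn, Cidea and Adrb3 were 0.15, −0.82, 1.32, 0.13 and −1.27, with standard errors of 1.25, 1.76, 1.44, 2.08 and 1.28. Those of Lep, Retn and Cidea rest on 6 to 13 counts in all. Fitted values were negative for 7 of the 10 genes, and the median over the 4 tested ones was −0.33, while over all tested genes it was −0.01.

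The signs of these values depended on which libraries entered the fit. Without FFA2 fl/fl 3, which turned the sign of 7 of the 10 genes, the remaining controls were all deep while 2 of 4 Adipoq-F2-KO libraries were shallow, and the mean sum of the 10 genes in FFA2 fl/fl fell from 27.7 ± 46.4 CPM (SD, n = 4) to 4.53 CPM, against 21.97 ± 19.3 CPM in Adipoq-F2-KO. All 10 fitted log2 fold changes were then positive, from 0.88 (Plin4) to 4.33 (Adipoq). Cfd, which had too few counts for the filter without this library, reached a log2 fold change of 3.50 (DESeq2 without a filter, adjusted p = 0.0235), and 5 of the 10 genes had an unadjusted p below 0.05. The sign of 6 genes turned with the 5 deep libraries alone, and that of 6 with the smooth muscle level as a covariate, where the log2 fold changes were 1.74 for Adipoq, 1.11 for Fabp4, 0.92 for Cfd and 1.04 for Car3 (standard errors 1.80, 1.14, 1.21 and 0.95) and none was called. Without this covariate the standard errors of these 4 genes were larger, at 2.26, 1.60, 1.57 and 1.47. When the depth class was added to the model as a term, an alternative chosen after seeing the data, the standard errors fell for 9 of the 10 genes. For Fabp4 the standard error went from 1.60 to 0.49 and the log2 fold change was −0.70 (−1.66 to 0.27), and for Adipoq the standard error went from 2.26 to 0.73 and the log2 fold change was −1.17 (−2.59 to 0.26). Car3 stood at −0.13 (−1.02 to 0.76), Cfd at −0.33 (−1.38 to 0.71) and Plin4 at −0.49 (−1.29 to 0.31) in this model, and none of the 10 was called. Within the 5 deep libraries, the mean sum was 4.53 ± 2.03 CPM in FFA2 fl/fl (SD, n = 3) and 5.37 ± 2.30 CPM in Adipoq-F2-KO (n = 2). Within the shallow libraries, which hold 1 control, the sums were 97.2 CPM in FFA2 fl/fl and 37.0 and 40.1 CPM in Adipoq-F2-KO.

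**Figure D3:**
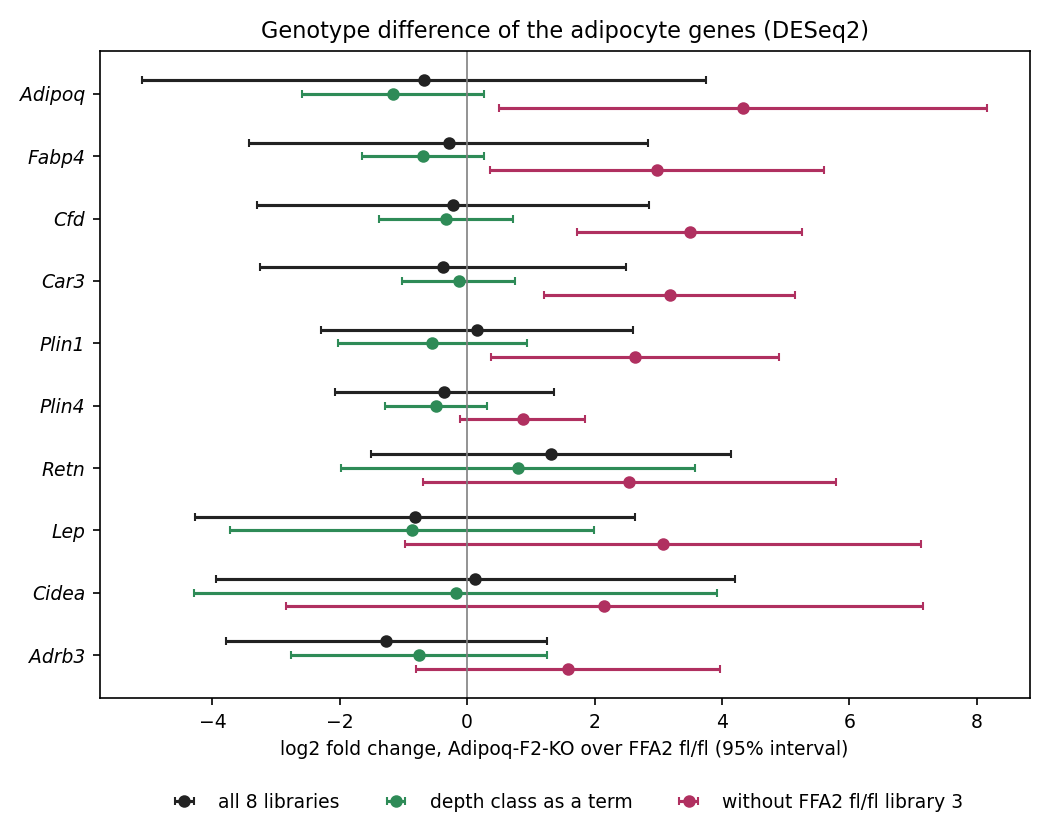
Log2 fold change of each adipocyte gene, Adipoq-F2-KO over FFA2 fl/fl (x axis), with its 95% interval from DESeq2, over all 8 libraries (black), with the depth class as a term (green) and without FFA2 fl/fl 3 (red). Over all 8 libraries every interval holds 0, with the depth class as a term most intervals are narrower and all hold 0, and without FFA2 fl/fl 3 all 10 values are above 0.

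Genes of other cell types were set beside these values. Smooth muscle, whose list of 10 genes includes Myh11, Acta2 and Des, varied widely between the libraries. Its summed level was 25.3, 329.5, 1811 and 25.6 CPM in FFA2 fl/fl and 43.5, 317.3, 151.2 and 635.0 CPM in Adipoq-F2-KO. FFA2 fl/fl 3 was highest in both muscle and fat genes. FFA2 fl/fl 2 and Adipoq-F2-KO 2 held 329.5 and 317.3 CPM of muscle genes with 6.72 and 6.99 CPM of adipocyte genes. Adipoq-F2-KO 3 held 151.2 and 40.1 CPM. Within the deep class, FFA2 fl/fl 2 and Adipoq-F2-KO 2 were highest in both sums. The other deep libraries held 25.3 to 43.5 CPM of muscle genes and 2.72 to 4.14 CPM of adipocyte genes. Of 10 smooth muscle genes, none was higher in all shallow than in all deep libraries. All 10 were tested between the genotypes and none was called, with a median log2 fold change of −0.94.

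Endothelium and macrophages are other sources of Fabp4. The summed level of 10 endothelial genes, led by Cd36, Lyve1 and Pecam1, was 85.1 to 182.4 CPM in the deep and 134.7 to 190.3 CPM in the shallow libraries, and that of 8 macrophage genes, led by Lyz2, Csf1r and Mrc1, was 13.5 to 49.96 and 36.9 to 54.9 CPM. Cd36, which enterocytes also make, gave most of the endothelial sum. Without it, the other 9 endothelial genes summed to 26.1 to 35.5 CPM in the shallow and 11.2 to 21.4 CPM in the deep libraries, with no overlap, as for the adipocyte genes. The macrophage ranges overlapped, also without Lyz2. Of the 10 endothelial genes, 3 were above all deep libraries in every shallow one, among them Pecam1, at 5.66 to 7.16 CPM in the shallow and 1.42 to 5.39 CPM in the deep libraries. In the list of preadipocytes and fibroblasts, 2 of 9 genes did so, among them Dcn, at 7.54 to 23.5 and 0.840 to 6.83 CPM. Pancreas (10.7 to 12.4 CPM in shallow and 5.62 to 16.3 CPM in deep libraries), mesothelium (436.6 to 550.5 and 369.3 to 671.3 CPM, of which the epithelial keratin Krt19 gave most) and lymph node genes (5.33 to 17.9 and 1.101 to 23.5 CPM) overlapped as well. The same held for neutrophil genes (0.333 to 2.75 and 0.582 to 1.82 CPM), enteric neuron and glia genes (8.52 to 24.97 and 6.45 to 11.01 CPM) and crypt and Paneth genes (630.9 to 988.0 and 339.6 to 845.6 CPM). No gene of these lists was called between the genotypes. The part of other cell types in the adipocyte values was not tested.

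Further genes known from adipocytes were counted at widely differing levels, with means over the 8 libraries of 0.0453 to 985.5 CPM. Which cells gave these counts was not tested. Of 26 such genes, 16 were tested between the genotypes, of which 7 had a positive and 9 a negative log2 fold change, with a median of −0.03 and none called. The list was led by Gpd1, the glycerol phosphate dehydrogenase (840.1 to 1408 CPM in the deep and 525.7 to 946.8 CPM in the shallow libraries), Pck1 and the hormone-sensitive lipase Lipe. Its sum was lower in the shallow libraries (1360 to 1557 CPM) than in the deep (1767 to 2405 CPM), but this rested on Gpd1, and without it the ranges overlapped (610.6 to 834.3 and 599.9 to 1387 CPM). Only 3 of its 23 genes with 10 or more counts were above all deep libraries in every shallow one, and these were named after their values were seen. They were Cyp2e1, the transcriptional cofactor Thrsp and the amino acid transporter Slc7a10, at up to 3.00, 3.06 and 0.656 CPM. Slc7a10 had at most 4 counts in any library and reached 10 in all only with those of the shallow libraries. Of 10 brown adipocyte genes, 3 were tested (Ppara, Cox7a1 and Kcnk3) and none was called, and Ucp1 and Elovl3 were at 0 in every library, which allows up to 3 counts in each. Kcnk3 was highest in FFA2 fl/fl 3, at 3.66 CPM against at most 2.14 CPM elsewhere. The sum of the list was 80.3 to 97.2 CPM in the shallow and 101.9 to 178.2 CPM in the deep libraries. Without Ppara the ranges overlapped (31.2 to 37.1 and 35.0 to 39.9 CPM).

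Droplet and lipolysis genes that enterocytes share with fat were set beside the 10 genes. Of 12, among them the triacylglycerol synthases Dgat1 and Dgat2 and the perilipin Plin3, 10 were tested and none was called, 2 being positive and 8 negative with a median log2 fold change of −0.21. None of the 12 was above all deep libraries in every shallow one, and the sum was 1374 to 1553 CPM in the shallow and 1566 to 2161 CPM in the deep libraries, ranges that overlapped without Dgat1 (921.8 to 1067 and 1011 to 1573 CPM). Of 7 receptors and partners through which adipokines act, including the adiponectin receptors Adipor1 and Adipor2 and the resistin partner Cap1, 4 were tested and none was called. Adipor2 had 709.1 ± 120.3 CPM in FFA2 fl/fl and 735.5 ± 55.5 CPM in Adipoq-F2-KO (SD, n = 4 per genotype; log2 fold change 0.07, DESeq2 adjusted p = 0.9998).

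The relatives of the adipocyte genes were looked at family by family, and of 19 relatives 11 were tested and none called. Fabp2 and Fabp1, the fatty acid carriers of enterocytes, were at 4589 ± 873 and 2630 ± 378 CPM in FFA2 fl/fl and 4594 ± 741 and 2848 ± 602 CPM in Adipoq-F2-KO. Fabp5 had 1.13 ± 0.493 and 0.961 ± 0.454 CPM. Fabp6, the bile acid carrier of the ileum, had 2, 2, 250 and 1 counts in FFA2 fl/fl and 5, 2, 70 and 501 in Adipoq-F2-KO, or 0.105, 0.0921, 41.6 and 0.0646 CPM and 0.329, 0.110, 11.5 and 76.6 CPM. It was high in the same 3 libraries as the adipocyte genes, but in another order, as Adipoq-F2-KO 4 and not FFA2 fl/fl 3 was highest. Among the perilipins, Plin2, Plin3 and Plin5 were at 66.6, 376 and 0.583 CPM on average in FFA2 fl/fl and 55.6, 383.0 and 0.493 CPM in Adipoq-F2-KO. Cideb and Cidec, relatives of Cidea, were at 9.35 and 124.0 CPM in FFA2 fl/fl and 9.20 and 88.1 CPM in Adipoq-F2-KO, and the difference of Cidec was not called (DESeq2, adjusted p = 0.232). Of the carbonic anhydrases, Car4 and Car2 were at 85.5 and 26.8 CPM in FFA2 fl/fl and 79.7 and 23.98 CPM in Adipoq-F2-KO, while Car1 was at 0 in every library. Among the relatives of resistin, Retnlb was at 0 in every library, Retnla had at most 3 counts in any library, and Retnlg had at most 0.612 CPM. Adrb1, another β-adrenergic receptor, averaged 1.46 CPM in FFA2 fl/fl and 1.55 CPM in Adipoq-F2-KO. C1qtnf12 and C1qtnf1, relatives of adiponectin, averaged 30.4 and 0.789 CPM in FFA2 fl/fl and 25.7 and 0.485 CPM in Adipoq-F2-KO.

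**Figure D4:**
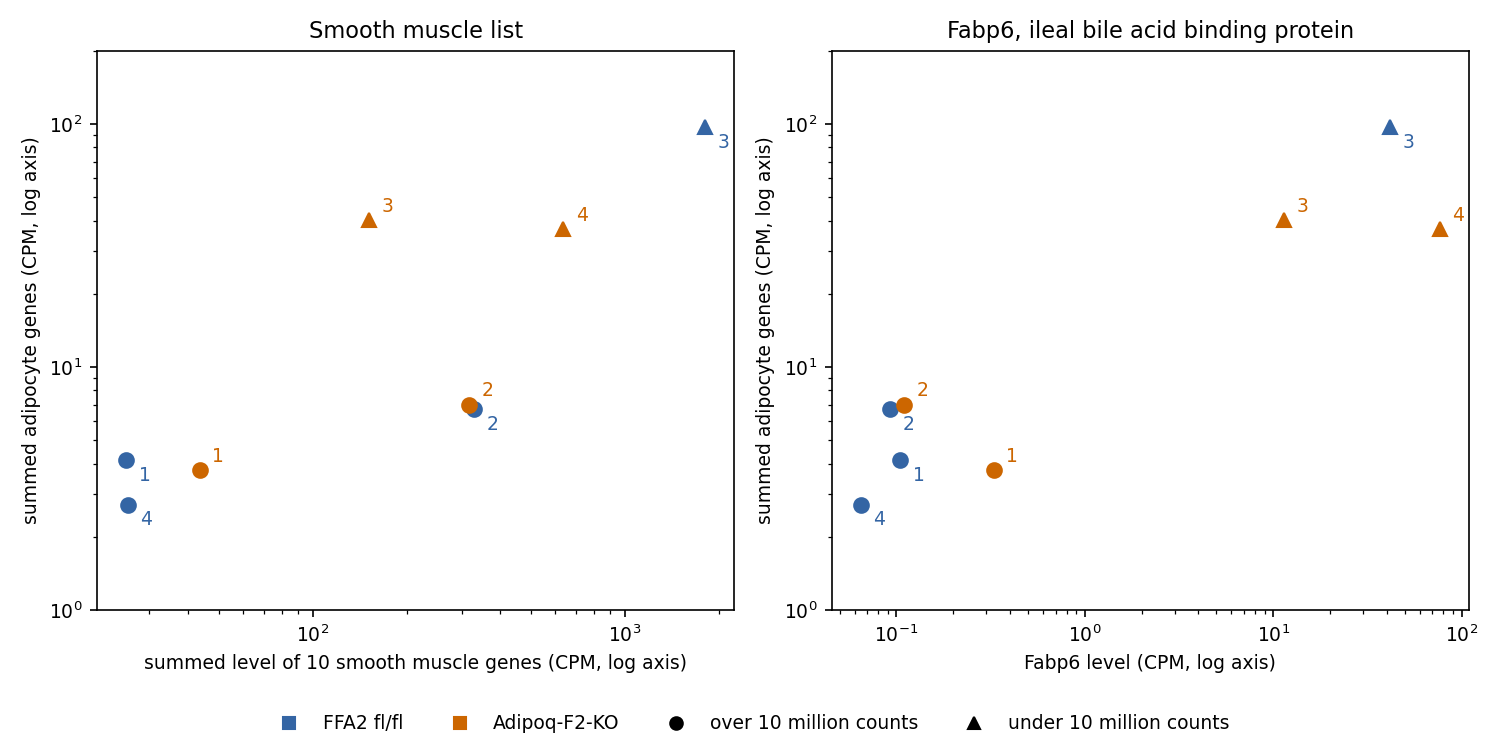
Summed level of the 10 adipocyte genes (y axes, CPM, log axis) against the summed level of 10 smooth muscle genes (left, CPM, log axis) and against Fabp6 (right, CPM, log axis) in each library, with library numbers beside the points. FFA2 fl/fl 2 and Adipoq-F2-KO 2 have more muscle but fewer adipocyte transcripts than Adipoq-F2-KO 3, and are the highest deep libraries in both. The 3 libraries with adipocyte sums of 37.0 CPM or more are those with Fabp6 at 11.5 CPM or more.

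The genes whose pattern over the 8 libraries was most like that of Adipoq were sought among 13050 tested genes by Pearson's r of log2 values, as a description. The 10 most alike were Rnf217 (r = 0.990), Lpl (0.970), Gm45630, Nfix, Pld3, Pola1, AI987944, Taf7, Ccdc174 and Tmem38b (0.937). As r ignores the size of a change, most of these moved little, and Rnf217 was between 4.74 and 6.66 CPM in all 8 libraries. Lpl, the lipoprotein lipase that adipocytes and muscle make to take up fatty acids, was the one with a span like that of Adipoq. It had 13, 14, 73 and 1 counts in FFA2 fl/fl and 5, 10, 38 and 42 in Adipoq-F2-KO, or 0.681, 0.645, 12.2 and 0.0646 CPM and 0.329, 0.551, 6.23 and 6.42 CPM. Nfix and Lpl were also among the 10 genes most like the mean of the adipocyte genes (r = 0.971 and 0.963), of which Pik3r4 was first (0.973). Among the adipocyte genes themselves, r with Adipoq was 0.971 for Fabp4, 0.962 for Lep, 0.961 for Car3, 0.945 for Cfd, 0.944 for Plin4 and 0.910 for Plin1, and 0.797, 0.720 and 0.659 for Adrb3, Retn and Cidea. All of these points share the 2 depth classes.

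Because the Cre driver is built on Adipoq, the 5 nearest protein-coding genes on each side of it on chromosome 16 were examined. The study describes the driver as a transgene and does not give its insertion site, so these genes need not lie near it. Of these 10, 5 were tested, with 4 positive and 1 negative log2 fold changes. Eif4a2, an RNA helicase of translation initiation, was called, at 1598 ± 55 normalised counts in FFA2 fl/fl and 2267 ± 292 in Adipoq-F2-KO (SD, n = 4 per genotype; DESeq2 log2 fold change of 0.50 with a standard error of 0.11 and an adjusted p = 0.0369), while edgeR did not call it (adjusted p = 0.9994). All 4 Adipoq-F2-KO libraries were above all 4 FFA2 fl/fl libraries for Eif4a2, at 1898 to 2611 against 1531 to 1661 normalised counts. This comes from the same values as the call and is no further support. Of all 15986 tested genes, 6 (0.0375%) were called and 331 (2.07%) did not overlap in CPM. Within FFA2 fl/fl the shallow library had 1619 normalised counts, between the deep ones, and within Adipoq-F2-KO the shallow libraries had 2611 and 2307 and the deep ones 2251 and 1898.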

How the data were processed

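RNA from jejunal mucosal scrapings of 4 FFA2 fl/fl and 4 Adipoq-F2-KO mice was sequenced after poly-A selection with a stranded kit. The authors trimmed reads with Trimmomatic, aligned them with STAR and assigned them to Ensembl genes with featureCounts. What they deposited are raw counts per library, neither normalized nor pooled. The submitters' processing notes name GRCm38 and mm10; the versions, the annotation release and the strand setting were not given in the sources used here. Groups and numbers came from sample titles.

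Symbols, positions and exon lengths were taken from GENCODE M21 (GRCm38), which named 52073 of 56980 identifiers. CPM is the count scaled to a library total of 1000000, and normalised counts were divided by DESeq2 size factors. The 15986 genes that reached 10 counts in 4 or more libraries were tested by DESeq2 1.42.0 in R 4.3.3 with genotype as the only term (two-sided Wald test, Benjamini-Hochberg adjustment over all tested genes, called at an adjusted p below 0.05), and edgeR 4.0.16 served as an alternative. The script was tested on simulated data. Intervals of shares and ratios are exact at 95% and, as the reads carried no molecular identifiers, cover counting error only. The labels name separate mice by number only, and p-values measure the spread between these samples. Libraries of a genotype differed by more than sampling noise (chi-square per gene of 5.04 to 56.5), so none was the same library sequenced again. The lowest value was that of Adipoq-F2-KO 3 and 4, and the next lowest was 16.9. A second sample from the same mouse cannot be told from another mouse in this way.

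The members, the lists and the rules were chosen with earlier results of these data known. All 10 members were named, and from each other list at most the 3 genes of highest mean CPM, relatives by family. A result for 1 relative is not reported here. The most alike genes were the 10 with the highest r of log2(normalised count + 1), among tested genes with a mean normalised count of at least 20. Named outside this rule, after their values were seen, were Cyp2e1, Thrsp, Slc7a10, Mb, Myh1, Pvalb, Ucp1 and Elovl3, and the genes of the closing ranking. Alternatives were other scalings, no filter, no Cook's cutoff, a smooth muscle covariate, a replicate block, the deep libraries alone, a depth class term and leaving out each library.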

Additional observations from a re-analysis of the deposited data

Results flagged for a closer look

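In FFA2 fl/fl, library 3 stood apart from the other 3 libraries for 9 of the 10 adipocyte genes and for their sum. The gap between this library and its nearest neighbour, divided by the range of the group in CPM, was 0.986 for Adipoq, 0.946 for Fabp4, 0.976 for Cfd, 0.977 for Car3, 0.919 for Plin1, 0.831 for Plin4, 0.955 for Lep, 0.843 for Cidea, 0.934 for Adrb3 and 0.958 for the sum, all above Dixon's 95% critical value for 4 samples. Of 24 sets of 4 libraries looked at, 10 were flagged in this way, whereas chance flags about 1 in 20, and the 10 share the same library and are not independent. The value of Cidea rests on 2 counts. In Adipoq-F2-KO no library stood apart, as 2 of its 4 libraries were high for most of these genes.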

How the results depend on the processing

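In the reported fit 6 genes were called, and 2 with edgeR, 11 with a replicate block, 78 in the 5 deep libraries, 3 with the depth class term and 3 without a filter. Leaving out 1 library gave 1 to 109 calls, the highest without FFA2 fl/fl 3. The adipocyte genes tested under the count filter were not called under any of these. In the fits without a filter, Cfd alone passed, without FFA2 fl/fl 3 (log2 fold change 3.50, adjusted p = 0.0235; smallest and largest adjusted p over all 10 genes and settings 0.0235 and 1.0), as the sign turned from negative to positive. The fitted sign differed from the reported one in 38 of 164 pairs of gene and alternative, over 9 of the 10 genes, in 7 genes without FFA2 fl/fl 3, 6 with the smooth muscle covariate, 6 in the deep libraries and 4 with the replicate block. Leaving out 1 library moved the log2 fold change of Adipoq between −1.96 and 4.33, of Cfd between −0.82 and 3.50, of Fabp4 between −0.89 and 2.98 and of Car3 between −0.88 and 3.18. The mean sum of the 10 genes in FFA2 fl/fl was 34.7 to 36.0 CPM without library 1, 2 or 4 and 4.53 CPM without library 3, and in Adipoq-F2-KO 15.9 to 28.0 CPM. The difference in library totals stayed between −7254365 and −2019324 counts. Libraries with the same title number deviated together with r of 0.542, 0.294, 0.011 and −0.423, which shows no regular pairing by these numbers. The block, which used the same numbers, called no adipocyte gene. A second numbering in the deposit differs from that of the titles, and pairing by it was not tested. Whether the mice were paired is therefore not known. The cause of these changes was not tested. With 3 counts as the floor, the values of Lep, Retn and Cidea rest on 13, 12 and 6 counts and are the least certain.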

Other observations

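The genes were also ranked by their difference between the depth classes, a ranking made after the data were seen. When 19169 genes with 30 or more counts were ordered by the pooled level in the 3 shallow over that in the 5 deep libraries, with 0.1 CPM added to each, 4 of the first 10 were adipocyte genes, namely Adipoq (place 4), Cfd (6), Fabp4 (8) and Car3 (10), and Plin1 was at place 14. Adrb3 and Plin4 were at places 32 and 282, while Retn, Lep and Cidea had under 30 counts and were not ranked. Adipoq, Cfd, Plin1 and Adrb3 had under 30 counts in the deep libraries and passed this minimum only with the counts of the shallow ones, as did Fabp6 and Fgf15, so their places are a description and no support. Lpl was at place 12. The first 3 places were taken by the ileal bile acid carrier Fabp6 (44.0 CPM in the pooled shallow and 0.134 CPM in the pooled deep libraries), the brush border phospholipase Plb1 (527.2 and 8.82 CPM) and Fgf15, the hormone that the ileum releases in response to bile acids (6.27 and 0.0335 CPM). Slc10a2, the bile acid transporter of the ileal brush border, was at place 24, with 26.3, 21.96 and 33.8 CPM in FFA2 fl/fl 3, Adipoq-F2-KO 3 and Adipoq-F2-KO 4 and 2.62 to 6.53 CPM in the deep libraries. Plb1 in the deep class reached 44.7 CPM in Adipoq-F2-KO 1, where the adipocyte sum was 3.75 CPM. Fabp6, Fgf15 and Slc10a2 were picked from the ranking and are no fixed list, and their relation to the adipocyte genes was not tested.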
